A study of Mus musculus with 6 samples.

Results

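JARID2 contacts on the transcripts of 3 Polycomb genes, Phc1, Ezh2 and Suz12, are described here. PAR-CLIP maps where a protein touches RNA. Here a pulse of 500 µM 4-thiouridine lasted 2 h, ultraviolet light of 312 nm (400 mJ/cm2) then linked RNA to bound protein, and the RNA that came down with JARID2 was sequenced. The cells were E14, an established line of mouse embryonic stem cells, grown in serum with LIF, and the same in-house JARID2 antibody was used throughout. There were 3 libraries of cells given 2 µM retinoic acid (RA) for 24 h and 3 of untreated cells, and the authors deposited 1 pooled list of RNA contact sites per condition. No site has a value per library, so n is 1 list per condition, no spread between replicates can be given, and every comparison is between lists. All groups were wild type and from 1 cell line, and no library of another antibody or of input RNA was analysed here.

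Members were the sites on the sense strand of fixed mm9 windows. The Phc1 window was chr6:122267000-122291000 on the minus strand, the Ezh2 window chr6:47479000-47546000 on the minus strand, and the Suz12 window chr11:79806000-79849000 on the plus strand. They held 85 of the 28728 sites in the lists, 10 from the RA list and 75 from the untreated list. Without a genome or annotation of the mm9 build, a site could not be placed in an exon, an intron or a UTR, and the bases under it could not be read. Positions are therefore given as the distance from the 5′ edge of the window, in the direction of transcription, measured to the middle of the site.

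Polycomb proteins keep developmental genes silent in embryonic stem cells. They work in a pair of complexes: PRC2 methylates histone H3, and PRC1 compacts chromatin and modifies histone H2A. EZH2 is the methyltransferase of PRC2 and SUZ12 is a core subunit that the enzyme needs to be stable and active. PHC1 belongs to PRC1, where its SAM domain lets complexes join into chains. JARID2 is a cofactor of PRC2 that helps bring it to its targets and can bind RNA. RA drives embryonic stem cells to differentiate. The sites described here are contacts of JARID2 protein with the RNAs of these genes, not with the proteins they encode.

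Phc1 had no site in the RA list and 25 sites in the untreated list. Suz12 had 8 sites in the RA list and 45 in the untreated list, and Ezh2 had 2 sites in the RA list and 5 in the untreated list. Over all genes the lists held 5348 RA sites and 23380 untreated sites, so the RA list made up 18.6% of all sites (exact 95% interval 18.2 to 19.1). Of the Phc1 sites 0% (0 to 13.7) came from the RA list, of the Suz12 sites 15.1% (6.75 to 27.6), and of the Ezh2 sites 28.6% (3.67 to 71.0). The Phc1 interval lay below the share over all sites, while the Suz12 and Ezh2 intervals included it. The 3 intervals overlapped one another, and the difference between the genes was not tested. These intervals cover counting error only, and they take each site as independent although sites of 1 transcript share their RNA.

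**Figure D1:**
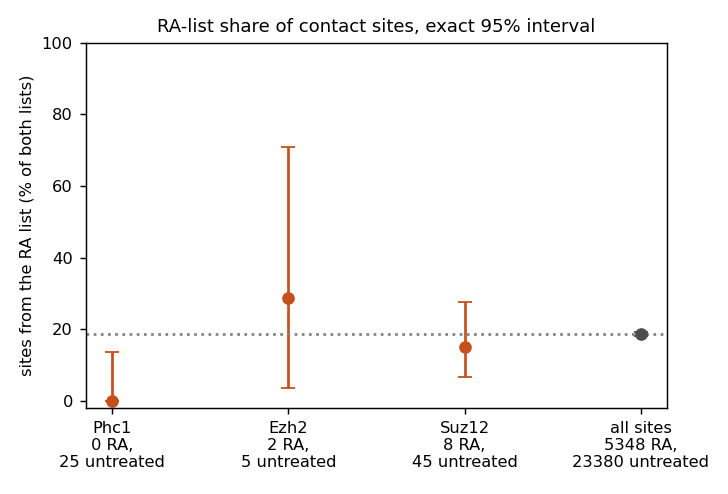
The percentage of contact sites that came from the RA list (y axis) is shown for each gene and for all sites (x axis); bars are exact 95% binomial intervals and the dotted line is the value over all sites. Phc1 stands at 0% of 25 sites, and the intervals of Ezh2 and Suz12 cross the line at 18.6%.

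As a share of list length, Suz12 held 0.150% of the RA list (0.0646 to 0.295) and 0.192% of the untreated list (0.140 to 0.257), an odds ratio of 0.777 (Fisher exact interval 0.316 to 1.67). Ezh2 held 0.0374% of the RA list (0.00453 to 0.135) and 0.0214% of the untreated list (0.00694 to 0.0499), an odds ratio of 1.75 (0.167 to 10.7). Phc1 held 0 of 5348 RA sites, a share with an exact upper limit of 0.0690%, and 0.107% (0.0692 to 0.158) of the untreated list. The odds ratio of Phc1 was 0, with an exact upper bound of 0.695. The intervals of Suz12 and Ezh2 leave room for a rise as well as for a fall.

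The same contrast was tested across the whole genome. Sites of either list no more than 10 kb from the next on their strand were merged into regions. For each of the 489 regions with 10 or more sites, a two-sided Fisher exact test set its part of the RA list against its part of the untreated list, adjusted by the Benjamini-Hochberg method. The test called 18 regions, 3.68% of those tested, of which 11 (2.25%) had a larger and 7 (1.43%) a smaller share in the RA list. The Phc1 region, the 25 sites over 20.9 kb, was not among them (Fisher exact p = 0.00889, adjusted p = 0.180). With untreated sites held to a higher minimum score, at least 18 against at least 10 for RA sites, the region kept 0 RA and 19 untreated sites and passed (Fisher exact adjusted p = 0.0347). These minimums kept 5142 of the 5348 RA sites but only 11389 of the 23380 untreated sites. The Phc1 part of the untreated list therefore rose through its untreated scores, while its RA count was 0 either way. At those minimums 13 of 239 regions (5.44%) were called, 9 of them (3.77%) with a smaller RA share. The Suz12 region, 8 RA and 45 untreated sites over 39.7 kb, did not pass (Fisher exact p = 0.599, adjusted p = 1). The Ezh2 sites fell into 3 separate regions of 1, 2 and 4 sites, all too small for the test. These tests compare the 2 lists and not the conditions.

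Other regions also had many untreated sites and none after RA. With Phc1 counted in, 53 of the 489 regions (10.8%) were listed with 0 RA sites. Of the 70 regions with 20 to 30 untreated sites, again with Phc1 counted in, 6 (8.57%) were. Among the 7 regions with exactly 25 untreated sites, Phc1 included, RA sites ran from 0 to 8 with a median of 4. The 3 of these closest to Phc1 in span had 1 RA site (chr11:57853206-57875401, plus strand), 4 RA sites (chr19:8798533-8817273, plus strand) and 5 RA sites (chr19:5828125-5845222, minus strand). Their genes are not named, since no mm9 annotation was used. By total number of sites, the Suz12 region ranked 32 and the Phc1 region 116 among 9482 regions.

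**Figure D2:**
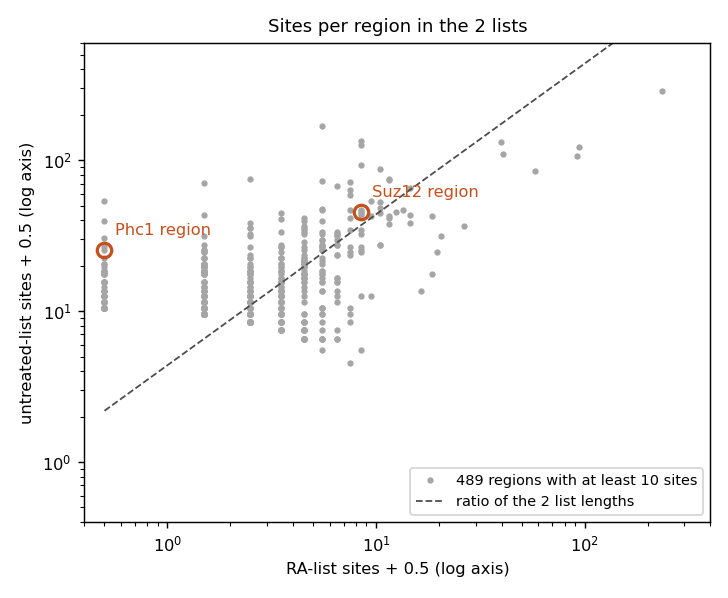
Each grey point is 1 of the 489 regions with at least 10 sites, with RA-list sites on the x axis and untreated-list sites on the y axis, both with 0.5 added and on log axes; the dashed line marks the ratio of the list lengths. The Phc1 region lies at the left edge with 0 RA sites, among other regions that also have none, and the Suz12 region lies close to the line.

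Phc1 and Suz12 were contacted about equally densely in untreated cells. Per kb of window, Phc1 had 0 RA and 1.04 untreated sites, Suz12 had 0.186 RA and 1.05 untreated sites, and Ezh2 had 0.0299 RA and 0.0746 untreated sites. Ezh2, with the longest window, 67 kb against 43 kb for Suz12 and 24 kb for Phc1, had the fewest untreated sites both in number and per length, while in the RA list Phc1, with 0, had the fewest. The 85 sites were taken from the sense strand by definition, and the opposite strand of the 3 windows held 0 sites in either list. That is common in these lists, since 473 of the 489 tested regions (96.7%) had no site on the opposite strand. In the GENCODE M21 annotation, which belongs to a later build and was used for names only, no other gene overlaps Phc1, while the noncoding gene Gm26563 overlaps Suz12 and Gm26625 and the pseudogene Gm44282 overlap Ezh2, all on the opposite strand. RNA levels were not measured here, so a change in contact, in transcript level or in the calling of sites cannot be told apart.

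In Phc1, the contacts of untreated cells ran along nearly the whole window. The first of the 25 lay 1.66 kb from the 5′ edge (chr6:122289323-122289356, score 11) and the last at 22.6 kb (chr6:122268427-122268431, score 32). With the window cut into 3 equal parts from the 5′ edge, 8 sites lay in the first, 4 in the middle and 13 in the last. The median step between neighbouring sites, from start to start, was 0.584 kb, and the longest was 3.55 kb. The score of a site is the authors' own whole number, and what it counts is not stated in the labels or the files.

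A single site stood out in Phc1. At 22.3 kb from the 5′ edge, near the 3′ end of the window (chr6:122268641-122268666, 26 bases), it had a score of 821, rank 563 in the untreated list, which puts it among the top 2.41% of that list. It carried 55.9% of the summed Phc1 score of 1470, and the other 24 sites summed to 649. The next highest scores were 68 at 2.53 kb and 68 at 7.93 kb. Of the 25 sites, 19 scored above the untreated list's median of 17, and the median Phc1 score was 23. The site with 821 was the only one of the 75 untreated sites of the 3 genes with a score of at least 100, a level reached by 8.09% of the untreated list. The RA site nearest to any Phc1 site on that strand was 114805 bases away.

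Suz12 also carried contacts over nearly its whole length in untreated cells, but none with a score of at least 100. Its RA sites scored 11 to 33 with a median of 24.5, and its untreated sites scored 1 to 63 with a median of 17. The medians of the whole lists were 23 for RA and 17 for untreated sites. The highest untreated scores were 63 at 32.5 kb (chr11:79838450-79838465), 50 at 14.7 kb (chr11:79820733-79820744) and 48 at 39.8 kb (chr11:79845786-79845801). The first untreated site lay 1.84 kb from the 5′ edge (score 11) and the last at 41.5 kb (score 10). No 1 site dominated, since the highest carried 6.89% of the summed untreated score of 915.

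Of the 8 Suz12 sites in the RA list, 5 lay toward the 3′ end. The 8 stood at 6.58 kb with a score of 29, at 7.48 kb with 21, at 17.6 kb with 25, at 34.2 kb with 33, at 37.5 kb with 11, at 39.3 kb with 26, at 40.2 kb with 18 and at 41.2 kb with 24. From start to start, 16.6 kb lay between the neighbouring RA sites at 17.6 kb and 34.2 kb. The longest such step in the untreated list was 5.80 kb. These lengths are not alike in kind, since 8 sites leave longer gaps than 45 in the same window. Of the RA sites, 5 of 8 (62.5%, exact interval 24.5 to 91.5) lay in the last of 3 equal parts of the window, against 14 of 45 untreated sites (31.1%, 18.2 to 46.6). The intervals overlapped, and the difference in position was not tested. From the 5′ edge, the 3 parts held 2, 1 and 5 RA sites and 17, 14 and 14 untreated sites.

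Ezh2 was sparsely contacted in both lists. Its RA sites lay at 12.6 kb (chr6:47533409-47533432) and 29.2 kb (chr6:47516838-47516846), each with a score of 14. Its 5 untreated sites scored 10 to 33. The highest were 33 at 18.4 kb (chr6:47527578-47527593), 19 at 54.8 kb, which was also the last along the gene, and 14 at 16.0 kb, and the first lay at 5.05 kb with a score of 11. Both RA scores were below the RA list's median of 23. With only 2 sites against 5, the counts could not tell a rise from a fall.

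**Figure D3:**
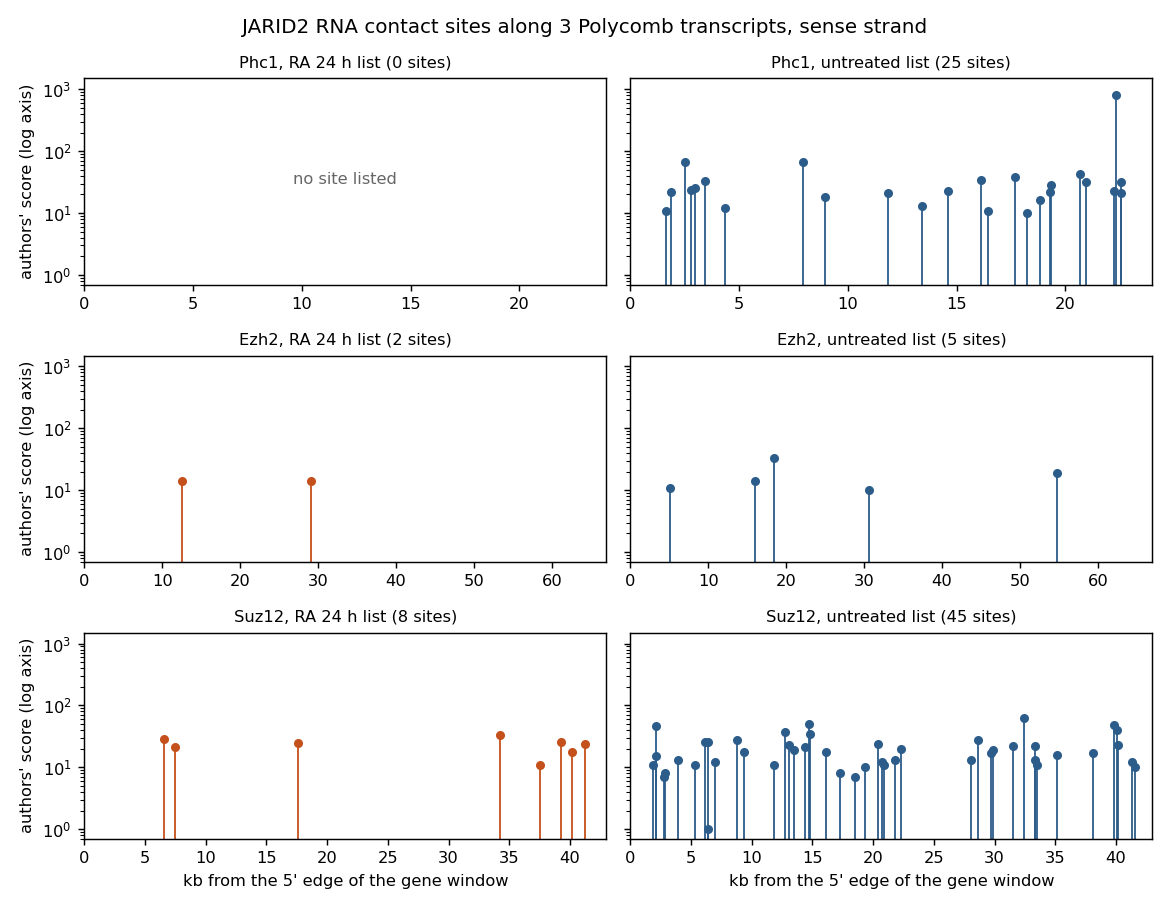
Each stem is a contact site, at its distance in kb from the 5′ edge of the gene window (x axis) and with the authors' score on a log axis (y axis); the RA list is on the left and the untreated list on the right. Phc1 shows no RA site and a single untreated site at 821 near the 3′ edge, and Suz12 shows 8 RA sites against 45 untreated sites.

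None of the RA sites fell on an untreated site. Of the 10 RA sites in the 3 genes, 0 (exact interval 0 to 30.8%) overlapped an untreated site of the same strand by 1 base or more. Seen from the untreated list this is the same result, with 0 of its 75 sites overlapping an RA site. The share of all untreated sites that overlap an RA site was not computed. Over the whole RA list 27.3% of sites were shared, but among the 2798 RA sites with the scores seen in these genes, 11 to 33, 9.47% were. The interval for the 3 genes includes both of these shares. The closest pair was in Suz12 at 40.2 kb, where 3 bases separated the RA site chr11:79846175-79846186 from the untreated site chr11:79846190-79846193. Another pair in Suz12 was 50 bases apart at 41.2 kb, so that 2 of the 8 RA sites lay within 100 bases of an untreated one. How often RA sites of the whole list lie that close was not computed. The other Suz12 RA sites were 150 to 690 bases from the nearest untreated site, and those of Ezh2 were 1407 and 3402 bases away.

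Sites of the 3 genes were short in both lists, 7 to 33 bases with a median of 12.5 in the RA list and 4 to 34 bases with a median of 11 in the untreated list. The median over the whole of each list was 12. Each name holds a group number and a suffix. In the untreated list, 4 group numbers of Suz12 and 1 of Phc1 held a pair of sites each, while each RA site of the 3 genes had a group number of its own.

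The names of the sites gave a further measure beside the number of sites. In both lists the group numbers rose with position along every strand of every chromosome, with 0 neighbouring sites out of order. Many numbers are skipped between listed sites, and what a skipped number stands for is not stated in the labels or the files. The highest number was 221592 in the RA list and 247324 in the untreated list, a ratio of 1.12 untreated over RA, although the listed sites differed 4.37-fold. Thus 2.12% of numbers up to the highest were listed in the RA list and 8.68% in the untreated list.

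Suz12 can be compared in this way over the same stretch of RNA in both lists. From its first to its last RA site, the RA list ran through 87 numbers, of which 8 were listed. Over that stretch the untreated list ran through at least 134 and at most 143 numbers, of which 31 were listed with 33 sites. The RA list thus had fewer numbers there, and it also listed fewer of them. How the lists compare in numbers over like stretches of other regions was not computed. Between the first and last listed site of each list, the listed part was 9.20% in the RA list and 24.7% in the untreated list. In regions with 5 to 9 RA sites the RA median was 15.6% (interquartile range 9.22 to 30.1, 98 regions), and in regions with at least 10 untreated sites the untreated median was 25.0% (20.0 to 32.1, 381 regions).

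For Phc1 the RA numbers give only an upper limit. The nearest RA sites on the same strand lay 2534 kb and 113 kb outside the window, and 263 numbers were skipped over the 2671 kb between them. Over the same stretch the untreated list ran through 374 to 451 numbers, and 94 of these ran from the first to the last Phc1 site, where 25.5% were listed. How many of the RA numbers lay in Phc1 cannot be read from the names. In Ezh2, 19 numbers ran from the first to the last RA site, 2 of them listed, and 2 to 25 numbers over the same stretch in the untreated list. The untreated sites of the whole Ezh2 window ran through 41 numbers, of which 5 (12.2%) were listed.

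**Figure D4:**
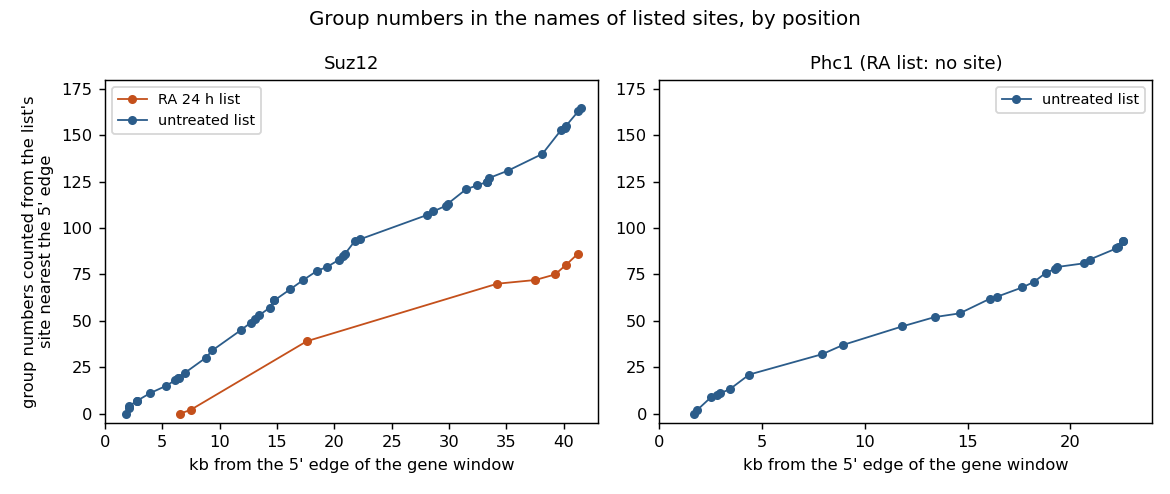
Group numbers in the site names, counted from each list's site nearest the 5′ edge (y axis), are plotted against the distance in kb from that edge (x axis) for Suz12 on the left and Phc1 on the right; each point is a listed site. In Suz12 the RA line climbs through 87 numbers and the untreated line through 166, and Phc1 has an untreated line only, through 94 numbers.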

How the data were processed

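Both deposited lists hold, for every site, its position, strand, name and a whole-number score. This score was made by the authors, neither labels nor files state what it counts, and read depth is unknown. Bowtie and mm9 are named per the submitters' processing notes, without role, version or settings. Libraries b1 to b3 of each condition were pooled by the authors, per the labels. All sites were kept, and coordinates are written from 1. Sites were counted in the sense-strand windows, and shared sites overlapped by at least 1 base on 1 strand. Intervals are exact (Clopper-Pearson) 95% intervals, or Fisher exact for odds ratios, and cover counting error only. The Fisher test across regions, with a threshold of 0.05, was tested on simulated lists with raised RA shares planted in large regions. Those lists held no planted losses and drew each site independently, so they do not cover a case such as Phc1. Within each gene, every RA site and the 3 highest, first and last untreated sites are named. Members, lists and tests were chosen with earlier results of these data known. The use of group numbers, of the range of 20 to 30 untreated sites and of the shared part within a score range was chosen after the data were seen. Another 29 Polycomb genes and the stem cell and RA-response markers were set to be looked up, but no mm9 annotation was used, so neither they nor the identity of the cells were checked. Alternatives were score minimums, widened or narrowed windows, both strands, joined sites, other gaps and other minimum numbers of sites. Tests used scipy 1.17.1 under Python 3.11.15, tables used pandas 2.3.3 and numpy 2.4.6, and figures used matplotlib 3.10.9.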

Additional observations from a re-analysis of the deposited data

How the results depend on the processing

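No paired analysis was possible because each list pools 3 libraries and no value carries a replicate number, and for the same reason no replicate could be left out. Of 31 alternatives, 28 left a share within its interval, a test on its side of the threshold, the number of called regions within 1.5 times that reported, or the number of shared sites at 0. Some could not have come out otherwise, since score minimums, narrowing and joining cannot add an RA site to the Phc1 window. Widening by 5 kb could not add an RA site there either, with the nearest 113 kb outside the window. Nor could both strands, since the opposite strand of the window held 0 sites. A minimum score of 10 could not change Ezh2, where the lowest score was 10. The wide Ezh2 interval, 3.67 to 71.0, also left its share counted as unchanged when it moved to 50%. The Phc1 region alone crossed the threshold (Fisher exact adjusted p = 0.0347), with minimum scores of 18 for untreated and 10 for RA sites. Its other adjusted p-values were 0.200 with gaps of up to 100 kb and 0.304 with regions of at least 5 sites, and with gaps of up to 1 kb its parts and those of Suz12 were too small to test. Fewer regions, 239 in place of 489, were tested at the higher minimum. With gaps of up to 1 kb, 10 of 198 regions were called in place of 18 of 489. Within 100 bases, 2 of 10 RA sites had an untreated neighbour in place of 0. The minimum of 18 also moved the share of RA sites to 26.7% for Suz12, 50% for Ezh2 and 31.1% over all sites, with Phc1 at 0%. At a score of at least 100, Phc1 kept 0 RA sites and 1 untreated site, and Suz12 and Ezh2 kept none. The Ezh2 regions could be tested only with gaps of up to 100 kb, in a region of 265 kb that reaches beyond the gene (Fisher exact adjusted p = 0.853).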
